A study of Rattus norvegicus with 4 samples.

Results

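The genes described here are 10 heat shock proteins and cochaperones of the rat liver: Hsp90aa1, Hsp90ab1, Chordc1, Hspa8, Hsph1, Dnaja1, Dnajb1, Hspb1, Hspd1 and Hspe1. They were taken by symbol from the 16999 symbols that the 4 libraries share, and all 10 were found in every library. The level of a gene is its deposited TPM (a transcript-abundance unit), a value scaled for gene length and library size, with the rows of a symbol summed. Livers of wild type rats anesthetized with sevoflurane (4.5%) or desflurane (6%), both halogenated ether vapors, had been sequenced as total RNA. For each agent, control rats were killed at loss of consciousness (0 h) and treated rats were kept under the agent for 6 h, so the controls had also inhaled the agent. Each of the 4 groups is 1 library, and the labels give neither strain, sex and age nor the number of rats behind a library. Control and treated rats were killed 6 h apart, so the duration of anesthesia and the hour of harvest cannot be told apart.

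Heat shock proteins are molecular chaperones that bind unfolded or partly folded proteins and keep them from aggregating. HSP70 proteins take up short exposed stretches of their clients with the help of J domain proteins, and pass some of them to HSP90, which holds kinases and steroid receptors in an activatable form, while the HSP60 chaperonin folds proteins in the mitochondrial matrix. Many of their genes are switched on by heat shock factors, which bind inverted repeats of the bases GAA in promoters, and in rodent liver the level of several of them follows body temperature through the day.

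The promoters are shown first because the members moved in partly different ways while most of them carry this repeat. RefSeq promoter windows of assembly GRCr8, each 250 bases before and 50 bases after the start of a gene, were at hand for 9 of the 10 members, with none for Hsp90aa1. A pair of inverted repeats, searched on both strands as GAANNTTC or TTCNNGAA, was found in 8 of the 9, against 15.9% of all 33469 promoter windows. A run of 3 repeats, either pair followed after any 2 bases by a repeat in the first orientation, was found in 6 of the 9, against 0.798% of all windows, and each such run contains both pairs. A match says only that these letters are present, and the capitals below mark the matched letters in the longest match of each window.
Chordc1, chr8:23650828-23650856, + strand: ccgGAACGTTCGGGAAGATTCCTGAAgca
Hsph1, chr12:10427329-10427347, + strand: agaTTCTGGAAAGTTCtcc
Dnaja1, chr5:60638410-60638428, + strand: gcgGAACTTTCCAGAAcgc
Hspe1, chr9:64084259-64084282, + strand: cggTTCTAGAACCTTCCGGAAggc
Hspd1, chr9:64084259-64084282, − strand: gccTTCCGGAAGGTTCTAGAAccg
Hspb1, chr12:26432420-26432433, − strand: agaGAAGTTTCcag
Dnajb1, chr19:41431142-41431155, − strand: gcgGAAGGTTCtgg

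Chordc1 has the longest uninterrupted run, 23 bases, lying 11 to 33 bases after the start. The Hspd1 and Hspe1 lines are the same stretch read from opposite strands, since these genes point away from each other and their windows overlap by 211 bases. They are 1 piece of DNA, although the counts of windows above take both. Hspb1 and Dnajb1 hold only the shorter pair, at 2 places each, and the window of Hsp90ab1 holds neither pattern. The window of Hspa8 is shown whole because it has the longer run at 2 places, from −213 to −201 and from −55 to −43 counted from the start.
Hspa8, chr8:50080264-50080563, + strand: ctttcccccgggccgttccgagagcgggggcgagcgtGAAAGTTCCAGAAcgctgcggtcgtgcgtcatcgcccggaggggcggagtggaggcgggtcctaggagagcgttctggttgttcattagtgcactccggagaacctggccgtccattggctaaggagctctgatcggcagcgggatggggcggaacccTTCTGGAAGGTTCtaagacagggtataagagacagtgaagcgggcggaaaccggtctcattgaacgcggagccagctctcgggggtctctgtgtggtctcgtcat

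Coordinates from here on are those of the files (rn6). The libraries held 3.50 to 5.57 Gb of aligned bases, with the sevoflurane control the shallowest. At a TPM of 2 a row was covered 4.72 to 7.28 times on average, and the rows of the members were covered 10.5 to 820 times, Hspb1 being the thinnest. With 1 library per group there is no spread between animals within a group: the comparisons of pairs of libraries carry no p-value, and a gene counted as called only where the ratio of its TPM exceeded 2 and the higher of both values was above 2. Hepatocyte markers led in every library, with summed TPM of 90041 to 100527 over 6 of 6 markers. The summed TPM of the 5 red blood cell markers was 611 and 961 in the sevoflurane and desflurane controls and 1626 and 1807 after 6 h, and its part in the results below was not tested. Marker sums of the lymphocyte and neutrophil lists stayed below 8. In bulk tissue, fewer cells of a type and less RNA per cell cannot be told apart.

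Together the 10 members made up 0.0977% to 0.140% of the TPM of all named genes. Their summed TPM was 859 in the sevoflurane control, 815 after 6 h of sevoflurane, 1102 in the desflurane control and 754 after 6 h of desflurane. The desflurane control thus stood highest and the desflurane 6 h library lowest. Single members differed widely in abundance, from Hspb1 at a TPM of 3.07 to 8.06 up to Hspd1 at 202 to 226 and Hspa8 at 139 to 337, Hspd1 being above Hspa8 in all libraries but the desflurane control.

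**Figure D1:**
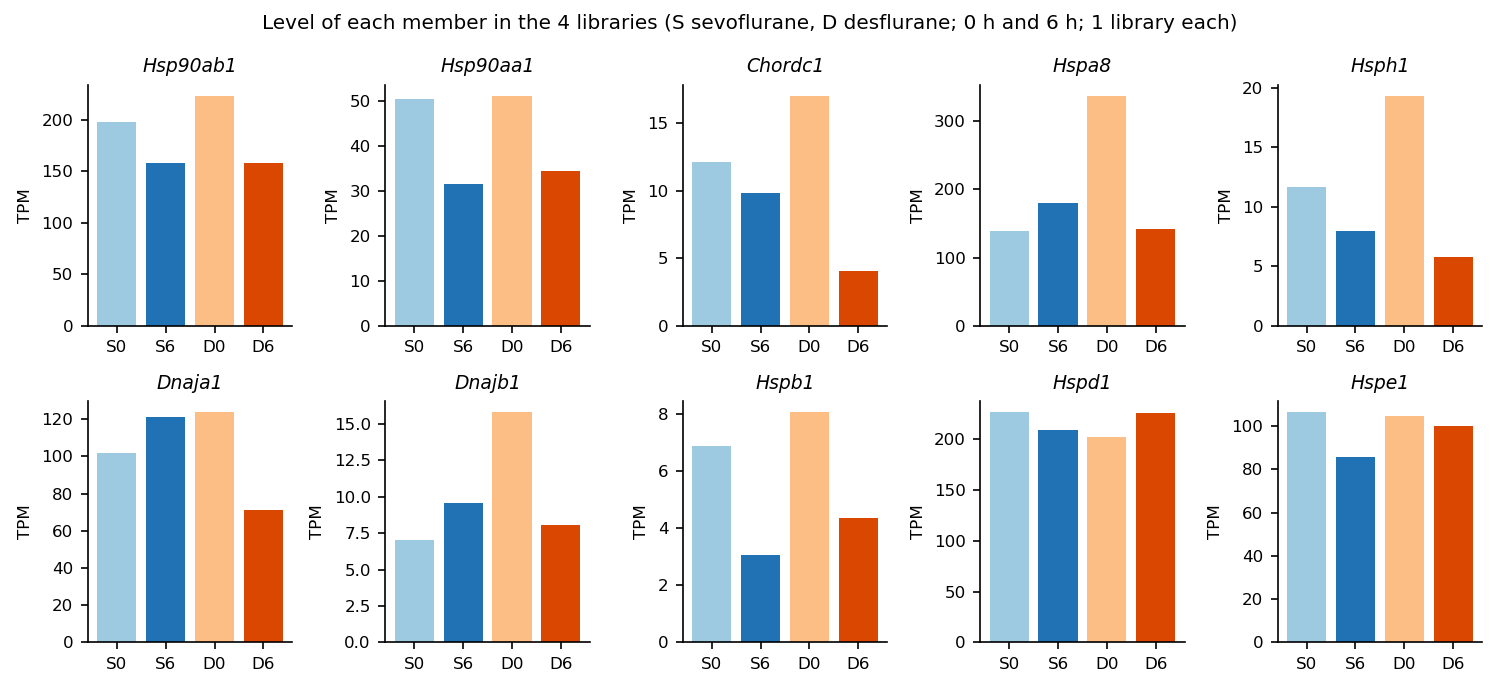
TPM (y axis, from 0, a separate scale for each gene) of the 10 members in the 4 libraries: S0 and D0 are the sevoflurane and desflurane controls, S6 and D6 the 6 h libraries, with 1 library per bar and therefore no error bar. Hspa8, Hsph1, Dnajb1 and Chordc1 stand highest in the desflurane control, whereas Hspd1 lies between 202 and 226 in all 4 libraries.

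HSP90 itself was lower after 6 h with either agent. Hsp90ab1, the HSP90 form made in all cells, had TPM of 198 in the sevoflurane control, 158 after 6 h of sevoflurane, 223 in the desflurane control and 158 after 6 h of desflurane. The heat-inducible form Hsp90aa1 had TPM of 50.5, 31.6, 51.2 and 34.5 in the same order. Both controls lay above both 6 h libraries for either gene, and neither gene reached a ratio of 2 in the named rows, of which the Hsp90aa1 row of the desflurane control is doubtful. As differences of log2(TPM + 1), Hsp90ab1 differed by −0.33 with sevoflurane and −0.50 with desflurane, and Hsp90aa1 by −0.66 and −0.56. The TPM of the pair summed to 248, 189, 274 and 192, and Hsp90ab1 exceeded Hsp90aa1 3.92 to 5.0 times on this length-scaled measure.

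Hsp90aa1 was not quantified in the same way in every library. It has 2 copies on the − strand of chromosome 6, one from 135107265 to 135112793 with TPM of 28.4, 17.6 and 19.1 in the sevoflurane control, sevoflurane 6 h and desflurane 6 h libraries, the other from 135044841 to 135050369 with 22.0, 14.0 and 15.3. In the desflurane control the files give a single row spanning both copies, from 135044841 to 135112793, with the TPM of 51.2. The coverage of that row relative to its FPKM was 0.652 of the value shared by the other rows of the library. Unnamed loci that the authors' assembler had built over the same DNA were therefore compared, an alternative chosen after seeing the data. At the first copy they had TPM of 28.4, 17.6, 35.6 and 19.1, so the desflurane control was highest, which gives differences of −0.66 with sevoflurane and −0.86 with desflurane. At the second copy the assembled locus of the desflurane control had a TPM of 55.0, while the other libraries had it in separate pieces. The level of Hsp90aa1 in the desflurane control therefore depends on which row is read, and it is above the other control by 0.02 with the named row and by 0.31 with the assembled locus at the first copy. With the assembled loci of both copies summed in the desflurane control, also chosen after seeing the data, the level was 90.5. The HSP90 pair then summed to 314. Against the named rows of the desflurane 6 h library, at 34.5, the desflurane difference was −1.37, past a ratio of 2. That difference sets assembled loci against named rows. Copies of nearly identical sequence share reads, and the GRCr8 table lists 14 pseudogenes named for Hsp90aa1.

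Chordc1 encodes a zinc-binding cochaperone of HSP90 and lies on chromosome 8 from 17421552 to 17445513 on the + strand. Its TPM was 12.1 in the sevoflurane control, 9.79 after 6 h of sevoflurane, 17.0 in the desflurane control and 4.04 after 6 h of desflurane. The desflurane 6 h library was lower than each of the other 3. Against its own control it was lower 4.2-fold (−1.83 on the log2 scale), the largest change of any member, while the sevoflurane change was −0.28. Chordc1 was also the only member called between the 6 h libraries, where it was 2.42-fold lower with desflurane (−1.10), beside 2.21% of 8229 genes called higher and 1.77% called lower there. An assembled locus over the gene, an alternative added after seeing the data, gave TPM of 12.1, 10.1, 17.0 and 5.24. With it the desflurane difference was −1.53, and the difference between the 6 h libraries was −0.83 (ratio 0.519), which ends that call.

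Hspa8, the constitutive cytosolic HSP70, had TPM of 139 in the sevoflurane control, 180 after 6 h of sevoflurane, 337 in the desflurane control and 142 after 6 h of desflurane. The desflurane control stood above the other 3. The desflurane 6 h library was 2.37-fold below its control (−1.24), yet it stood within 0.036 log2 units of the sevoflurane control, and the sevoflurane 6 h library was above its own control by 0.37. The call for Hspa8 thus depends on which control is used.

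Hspa8 has 3 rows, and they moved together. The longest row, on chromosome 8 from 44989401 to 44993261 (+ strand), had TPM of 75.2, 100.2, 182 and 73.5. The row on chromosome 11 from 13499164 to 13501263 (+ strand) had 36.0, 44.9, 85.8 and 39.6, and that on chromosome 6 from 34553288 to 34555386 (− strand) had 27.7, 34.6, 69.2 and 29.3. In each row the desflurane control was highest. The chromosome 8 row held 51.6% to 55.7% of the sum. The other rows span 2100 and 2099 bases against 3861 bases on chromosome 8, near-identical copies can exchange reads, and the GRCr8 table lists 33 pseudogenes named for Hspa8, so the split between rows is uncertain.

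**Figure D2:**
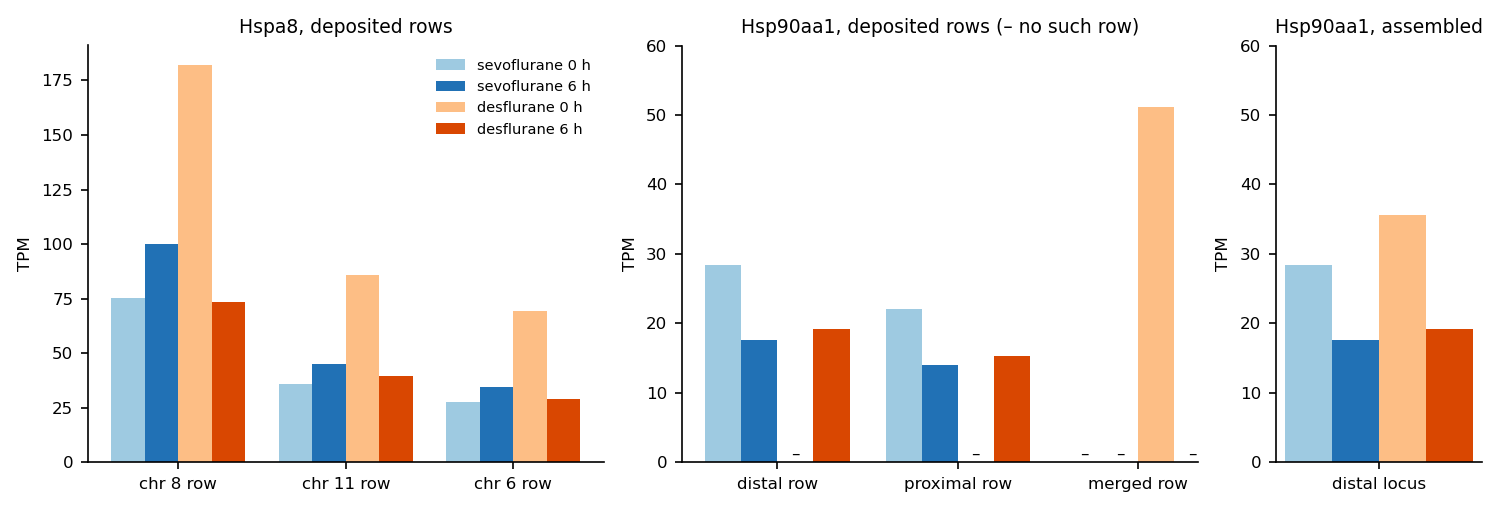
TPM (y axes, from 0) of the single rows of Hspa8 (left), of Hsp90aa1 (middle, distal from 135107265, proximal from 135044841, merged in the desflurane control only) and of the assembled locus over the distal Hsp90aa1 copy (right), 1 library per bar. The 3 Hspa8 rows keep the same order of libraries except for their lowest value, and the assembled Hsp90aa1 locus is highest in the desflurane control at 35.6.

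Hsph1, an HSP110 protein that releases nucleotide from HSP70, shared the high desflurane control but was lower after 6 h of either agent. The gene lies on chromosome 12 from 6322685 to 6341898, and its TPM was 11.7, 8.0, 19.3 and 5.76 in the sevoflurane control, sevoflurane 6 h, desflurane control and desflurane 6 h libraries. Both controls lay above both 6 h libraries. The difference was −0.50 with sevoflurane and −1.59 with desflurane, where it was called 3.35-fold lower.

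The J domain proteins among the members had the same signs as Hspa8, above their control with sevoflurane and below it with desflurane. Of 8024 genes, 56.1% were higher with sevoflurane and 62.3% were lower with desflurane. Dnaja1 (chromosome 5 from 57028467 to 57039378) had TPM of 102, 121, 124 and 71.0, with differences of 0.25 for sevoflurane and −0.79 for desflurane. Dnajb1 (chromosome 19 from 24747178 to 24750919), the classic heat-inducible HSP40, had TPM of 7.04, 9.57, 15.8 and 8.03, with differences of 0.39 and −0.89. After desflurane, Dnajb1 lay 1.96-fold below its control, just inside the ratio of 2, and neither J protein was called for either agent. The lowest library was not the same: Dnaja1 was lowest after 6 h of desflurane, and Dnajb1 in the sevoflurane control.

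Hspb1, a small heat shock protein that holds unfolded proteins without using ATP, was the only member called with sevoflurane. On chromosome 12 from 23839390 to 23841051, it had TPM of 6.89 in the sevoflurane control, 3.07 after 6 h of sevoflurane, 8.06 in the desflurane control and 4.36 after 6 h of desflurane. Both controls lay above both 6 h libraries. The ratio reached 2.24-fold lower with sevoflurane (−0.95), beside 1.85-fold lower with desflurane (−0.76), which was not called.

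The subunits of the mitochondrial chaperonin were not called in any comparison. Hspd1 (HSP60) had TPM of 226, 209, 202 and 225, and its lid Hspe1 (HSP10) had 106, 85.5, 105 and 100. The differences were −0.11 and 0.16 for Hspd1 with sevoflurane and desflurane, and −0.31 and −0.07 for Hspe1. The genes lie head to head on chromosome 9, Hspd1 from 61680530 to 61690956 on the − strand and Hspe1 from 61691246 to 61694102 on the + strand. The TPM ratio of Hspd1 to Hspe1 was 2.13, 2.45, 1.93 and 2.25. Hspd1 and Hspe1 were the only members not highest in the desflurane control.

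Counted over the members, 0 were called higher and 1 was called lower with sevoflurane (Hspb1), beside 5.04% higher and 3.71% lower of the 8270 genes that were above TPM 2. With desflurane, 0 were called higher and 3 lower (Chordc1, Hsph1 and Hspa8), beside 4.1% and 5.55% of 8372 genes. With both assembled Hsp90aa1 loci in the desflurane control, set against the named rows after 6 h, 4 were lower. The median difference of the 10 members was −0.30 with sevoflurane, against 0.05 over the 8024 genes averaging a TPM of 2 or more, and −0.77 with desflurane, against −0.10. In sign, 7 of the 10 were negative with sevoflurane and 9 of the 10 with desflurane, beside 43.9% and 62.3% of the 8024 genes. No member was called with both agents.

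The controls themselves differed. In the desflurane control, Hspa8 was 2.43-fold (1.27) and Dnajb1 2.24-fold (1.06) above the sevoflurane control. These 2 members were called higher and 0 lower, beside 1.96% of 8263 genes called higher and 0.799% lower. Hsph1 was 1.65-fold higher, below the threshold. The desflurane control was the highest of the 4 libraries for 8 of the 10 members, beside 36.8% of 8024 genes. Between the controls the members had a median difference of 0.24 against 0.12 over all genes.

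Because each agent has a single control, every 6 h library was also set against the opposite control. The sevoflurane 6 h library against the desflurane control gave Hspb1 (−1.15) and Hsph1 (−1.17) as lower and none as higher, beside 3.97% lower and 3.24% higher of 8354 genes. The desflurane 6 h library against the sevoflurane control gave Chordc1 (−1.38) and Hsph1 (−0.91) as lower and none as higher, beside 4.59% lower and 6.13% higher of 8293 genes. Chordc1 and Hsph1 after desflurane and Hspb1 after sevoflurane were thus called against either control, and Hspa8 was not. Of the uncalled members, Dnajb1 moved from −0.89 to 0.17 with desflurane and from 0.39 to −0.67 with sevoflurane. Dnaja1 moved from −0.79 to −0.51 with desflurane and from 0.25 to −0.03 with sevoflurane.

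**Figure D3:**
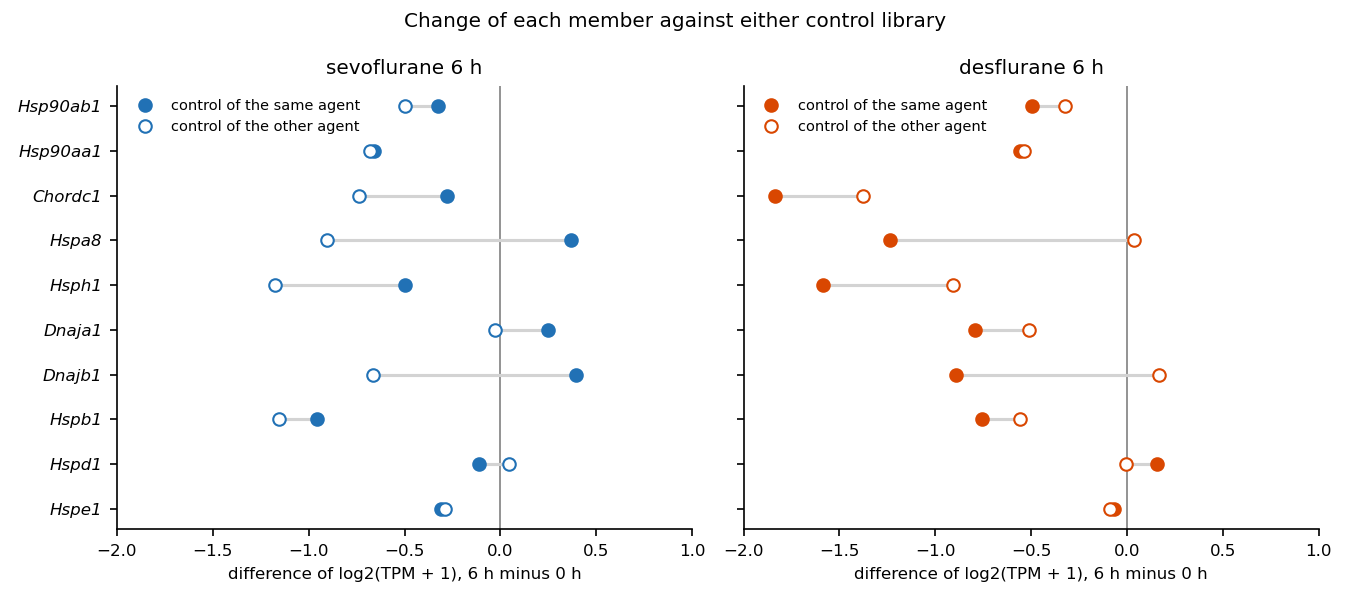
Difference of log2(TPM + 1), 6 h minus 0 h (x axis), of each member (y axis) for the sevoflurane 6 h (left) and desflurane 6 h (right) libraries, with filled points for the control of the same agent and open points for the control of the other agent. The points of Hspa8 lie on opposite sides of 0 in both panels, whereas those of Chordc1, Hsph1, Hspb1 and both HSP90 genes lie below 0 throughout.

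The change averaged over both agents can be tested across all genes, with each agent contributing 1 control and 1 treated library. The fit has no term for a difference between the agents' changes, so it cannot show whether a change was shared. In limma on log2(TPM + 1) with the agent as a term, 3 of the 10 members had an adjusted p under 0.05, all lower after 6 h, beside 8.62% of 8024 genes, and 5 had an unadjusted p under 0.05, beside 19.9%. Hsph1 fell by 1.04 (SE 0.257, adjusted p = 0.0236), Hsp90aa1 by 0.61 (SE 0.154, adjusted p = 0.0271) and Hspb1 by 0.86 (SE 0.228, adjusted p = 0.0359). The fit used the merged Hsp90aa1 row of the desflurane control. These limma calls rest on 1 residual degree of freedom and on a spread borrowed from the other genes. They were not stable: 0 of the 3 passed with libraries rescaled by the median of ratios, and 1 passed with the agent term dropped. Fits that left out a library also dropped the agent term and left 1 library in an arm, so their calls are not counted here. Over 6 alternative settings, the limma adjusted p ranged from 0.0361 to 0.310 for Hsph1, from 0.0347 to 0.173 for Hsp90aa1 and from 0.0421 to 0.233 for Hspb1. Both controls lay above both 6 h libraries in 6 of the 10 members, beside 28% of all genes, and below them in 0 members, beside 23%.

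Chordc1 (−1.06, 95% confidence interval −1.72 to −0.39, limma adjusted p = 0.0533) and Hsp90ab1 (−0.41, −0.69 to −0.14, adjusted p = 0.0717) did not pass in limma. For Hspa8 the averaged difference was −0.43 with an interval of −1.01 to 0.14, over 0.37 with sevoflurane and −1.24 with desflurane. For Dnajb1 it was −0.25 with −0.85 to 0.36, over 0.39 and −0.89. The interval of Hspd1, 0.02 with −0.26 to 0.30, was the one centered nearest to 0.

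**Figure D4:**
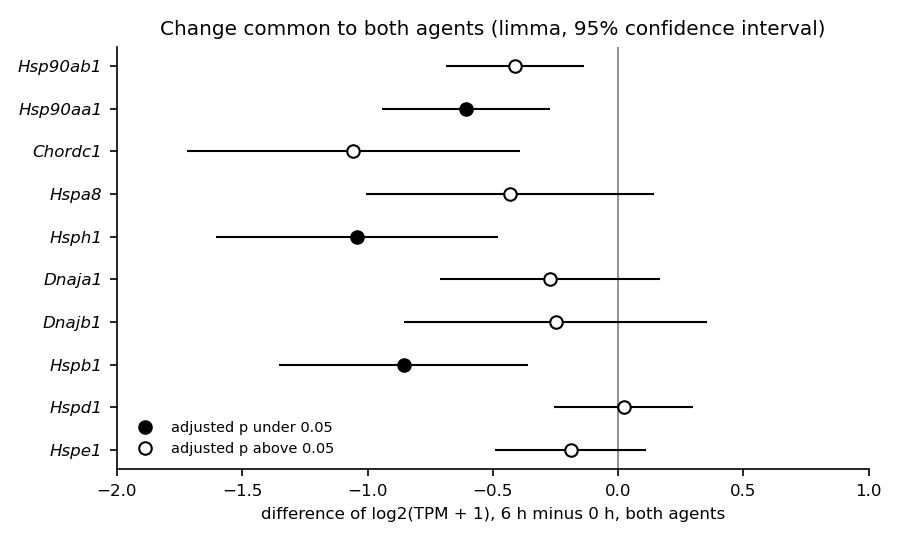
Difference of log2(TPM + 1) averaged over both agents (x axis, 6 h minus 0 h) for each member (y axis), with points for the limma estimate and lines for its 95% confidence interval from 4 libraries. Filled points (Hsp90aa1, Hsph1 and Hspb1) have an adjusted p under 0.05, and all members but Hspd1 have estimates below 0.

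Other chaperone genes were read from 9 lists holding 121 symbols, of which 117 were found. With sevoflurane, 1 was called higher and 4 lower of 99 above TPM 2, beside 5.04% and 3.71% of all genes above that level. With desflurane, 2 were called higher and 6 lower of 100, beside 4.1% and 5.55%. Their median differences were −0.0038 and −0.19. Between the controls 0 of 100 were called in either direction, beside 1.96% higher and 0.799% lower of all genes. With a ratio of 1.5 the listed genes gave 9 calls, 8 of them higher, and the share of all genes was not computed at that ratio. In limma, 8 of 98 listed genes had an adjusted p under 0.05 for the averaged change, beside the 8.62% over all genes. The alternative limma settings were not summarized for the listed genes.

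Among the HSP90 cochaperones, Fkbp4 and Fkbp5 were called with each agent. Fkbp4 and Fkbp5 are immunophilins that compete for the steroid receptor complex of HSP90. Fkbp4 had TPM of 70.0, 27.9, 68.2 and 27.1 in the sevoflurane control, sevoflurane 6 h, desflurane control and desflurane 6 h libraries, a difference of −1.30 with either agent. Fkbp5, which glucocorticoids induce, had 2.85, 12.7, 4.10 and 18.9, that is 1.83 and 1.96 higher. The pair changed in opposite directions, and in limma Fkbp4 fell by 1.30 (adjusted p = 0.000123) and Fkbp5 rose by 1.90 (adjusted p = 0.000102).

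Within the same list, Cdc37l1, a relative of the kinase-specific cochaperone Cdc37, had TPM of 21.3, 41.4, 25.0 and 67.9. It was called higher with desflurane (1.40), and it rose by 1.17 in limma (adjusted p = 0.000868). Cacybp, a partner of ubiquitin ligases, fell by 0.72 in limma (adjusted p = 0.0142). Ahsa2, an activator of the HSP90 ATPase, had TPM of 4.50, 3.41, 7.51 and 3.10 and was called lower with desflurane (−1.05). With the controls exchanged the call moved to sevoflurane, at ratios of 0.454 for sevoflurane and 0.689 for desflurane. Of the 16 listed cochaperones, 14 were lower after desflurane and 12 after sevoflurane, with medians of −0.40 and −0.10, beside 62.3% and 43.9% of all genes.

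J domain proteins gave 1 call with sevoflurane and 2 with desflurane among 30 genes above TPM 2. All were lower, beside 3.71% and 5.55% of all genes called lower with these agents. Dnajc12, a J protein that assists the aromatic amino acid hydroxylases, had TPM of 15.9, 5.37, 20.4 and 6.44 and fell by 1.47 in limma (adjusted p = 0.000514). It was called with each agent (−1.41 and −1.53). Dnajc28 was called lower with desflurane (−0.90). The HSP70 list gave Hspa14, a ribosome-associated HSP70, as lower with desflurane (−1.0), a call lost against the sevoflurane control (ratio 0.528), while the mitochondrial HSP70 Hspa9 had TPM of 121, 135, 128 and 170.

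The heat-inducible HSP70 genes were nearly silent in all 4 libraries. Hspa1b had TPM of 0.14, 0.59, 0.41 and 0.73, and its near-identical neighbor Hspa1a, which shares its reads, stayed at or below 0.25. Both were under the minimum TPM of 2. Of the heat shock factors, Hsf1 had TPM of 1.43 to 2.03, Hsf2 had 11.1 to 13.8 and Hsf4, below the minimum in all libraries, had 0.68, 0.52, 0.14 and 0.42.

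Outside the cytosol, Clpx, the unfoldase of a mitochondrial protease, had TPM of 199, 71.0, 168 and 112. It was called lower with sevoflurane (−1.48), and in limma it fell by 1.03 (adjusted p = 0.00323). Creld2, an endoplasmic reticulum protein raised by unfolded proteins, had 28.7, 21.4, 39.4 and 15.4, was called lower with desflurane (−1.30) but not against the sevoflurane control (ratio 0.539), and fell by 0.85 in limma (adjusted p = 0.025). Hyou1, an HSP70 relative of the same compartment, fell by 0.61 in limma (adjusted p = 0.0255). Its main HSP70, Hspa5, had TPM of 385, 355, 406 and 306 and was not called. Cryab, a small heat shock protein, was called lower with sevoflurane (−0.73) at TPM of 3.25 and 1.57, but not against the desflurane control (ratio 0.515).

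**Figure D5:**
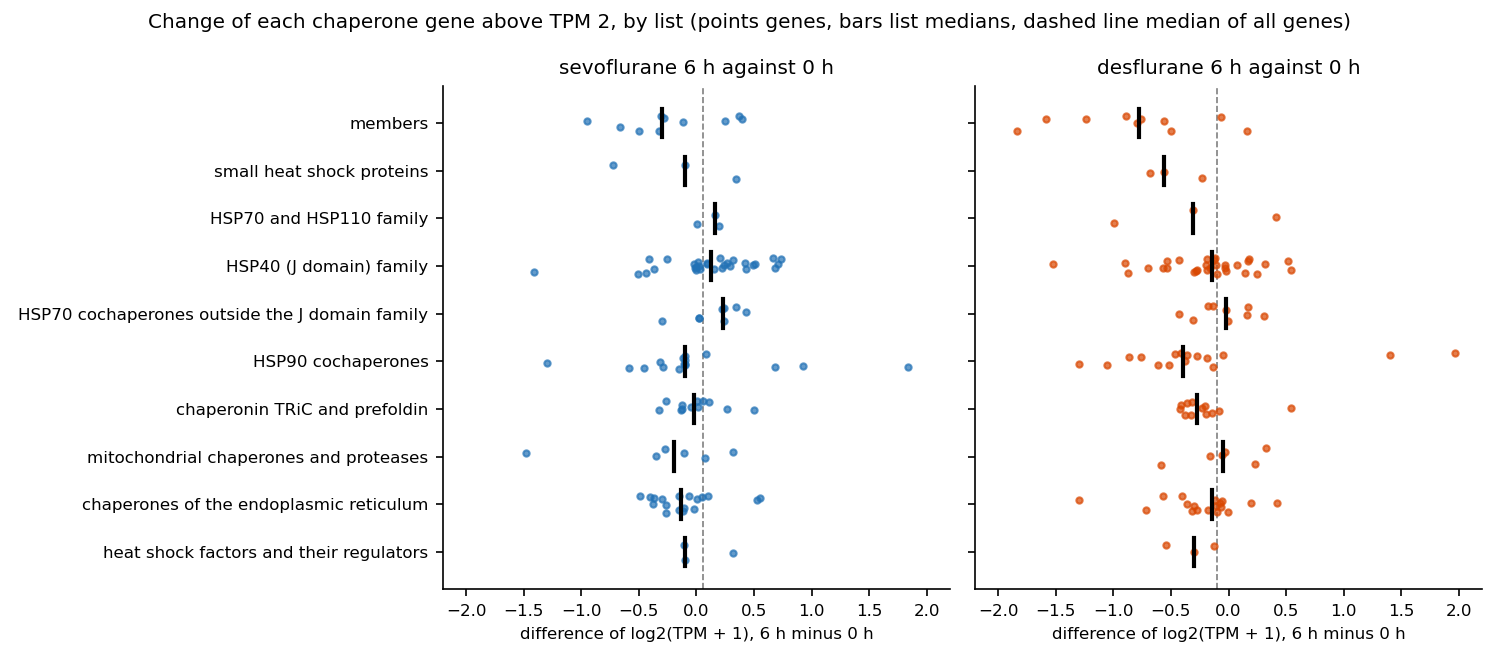
Difference of log2(TPM + 1), 6 h minus 0 h (x axis), for the members and for each list of chaperone genes above TPM 2 (y axis), with sevoflurane on the left and desflurane on the right, points for genes, bars for list medians and a dashed line for the median of 8024 genes. The median of the members lies at −0.30 with sevoflurane and at −0.77 with desflurane, and Fkbp5 is the point farthest to the right in both panels.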

How the data were processed

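Total RNA of rat livers (4 libraries) was extracted with an RNeasy kit and made into stranded libraries by the authors. Per the submitters' processing notes, HISAT2, SAMtools and StringTie with rn6 were used; the sources used here do not give versions or settings. The deposited tables hold coverage (mean signal over a row), FPKM and a TPM score per named gene or assembled locus. The deposited TPM is treated as a score because named genes and assembled loci together exceed the total that defines TPM. FPKM and coverage served to check depth, which limits thin rows.

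From these, rows of 1 symbol were summed and log2(TPM + 1) was compared. Each group had 1 library, so pairs were read by a rule of size (TPM above 2, ratio above 2) with no p-value. The change averaged over both agents was fitted with limma 3.58.1 in R 4.3.3 (agent as a term, mean TPM of at least 2, trend, Benjamini-Hochberg over 8024 genes), tested on simulated data. Genes named are the members and the listed genes called with either agent or past limma, with the heat shock factors and the main HSP70 genes added after their values were seen. The members and lists were chosen with earlier results of these data known. Alternatives were another ratio, minimum TPM, pseudocount, scaling, row choice, control, filter and spread, dropping the agent term, and leaving out a library together with the agent term. No protein sequence was used here, and exon and UTR annotation was not used.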

Additional observations from a re-analysis of the deposited data

Results flagged for a closer look

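For 4 of the 10 members the sevoflurane and desflurane libraries moved in opposite directions, a share near the 36.8% of 8024 genes that did so. The desflurane change minus the sevoflurane change of log2(TPM + 1) was −1.61 for Hspa8, −1.04 for Dnaja1, −1.29 for Dnajb1 and 0.27 for Hspd1. With 1 library per group, the difference was not tested. For Hspa8 and Dnajb1 the desflurane control was called above the sevoflurane control (1.27 and 1.06), whereas their 6 h libraries were not called apart.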

How the results depend on the processing

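A gene had to pass a ratio of 2 to be called. The share of all genes called was computed only at that ratio, with a minimum TPM of 2 and no rescaling. With a ratio of 1.5, the members called became 2 with sevoflurane, 6 with desflurane and 2 between the 6 h libraries, and the listed chaperone genes 14, 23, 9 between the controls and 9 between the 6 h libraries. With a ratio of 3, the members called became 0 with sevoflurane, 0 between the controls and 0 between the 6 h libraries, and the listed genes 1, 2 and 0 with sevoflurane, desflurane and between the 6 h libraries. Against the control of the other agent, 2 members were called with sevoflurane and 5 listed genes with desflurane, the members had a median of −0.67 for sevoflurane and −0.42 for desflurane, and the desflurane difference of Hspa8 turned to 0.036. The desflurane median was −0.59 with a pseudocount of 5. The median between the controls was 0.12 after scaling by the median of ratios and 0.37 with the highest row only, a setting that sets the merged Hsp90aa1 row against a single copy. The listed genes called between the 6 h libraries were 2 with TPM above 1 and 2 with named genes rescaled to a common sum. Among uncalled values, median-of-ratios scaling turned the desflurane difference of Hspe1 to 0.04 and the control difference of Hsp90aa1 to −0.10.

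In limma, 692 genes had an adjusted p under 0.05 for the change averaged over both agents. This count became 25 with no filter on low values, 440 without the trend and 163 to 591 without 1 library. The 3 members became 0 with no filter, 0 with the median of ratios and 1 without the trend. The fit without the agent term, which allows each agent its own level, gave 1 member and 488 genes. Fits that left out a library also dropped the agent term and left 1 library in an arm, which was assumed to vary like the others. Their calls are not counted here. The cause of these shifts was not tested.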

Other observations

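The mean profile of the 10 members over the 4 libraries, as deviations of log2(TPM + 1) from each gene's own mean, was 0.06 in the sevoflurane control, −0.16 after 6 h of sevoflurane, 0.45 in the desflurane control and −0.35 after 6 h of desflurane. Among 5885 genes averaging a TPM of 5 or more, the 10 nearest to it were Chtf8, Fdx1, Magoh, Rwdd1, Scyl3, Irf9, Itsn1, Dvl1, Gatad2a and Tor2a, with root mean square differences of 0.0211 to 0.0511. Fdx1, the mitochondrial electron carrier ferredoxin, had TPM of 49.7, 43.3, 65.8 and 38.7 in that order. The likeness is over 4 libraries and is a description. The members themselves lay farther from this mean, from 0.117 for Hsp90ab1 to 0.420 for Chordc1.

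All 6 listed mitochondrial chaperones and proteases were higher in the desflurane 6 h library than in the sevoflurane 6 h library, with a median difference of 0.32 and none past a ratio of 2, beside 45.7% of 8024 genes higher. This list was singled out from 9 after its values were seen.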
